A study of Mus musculus with 7 samples.

Results

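The genes described are 9 scavenger receptor genes, Stab1, Msr1, Marco, Cd36, Scarb1, Scarb2, Colec12, Olr1 and Scarf1, chosen by name and matched by symbol in a table of 25571 genes. All 9 were found and all 9 passed the filter on low counts. They were measured in RNA of CD11b-sorted tumour-associated macrophages from T387 glioblastoma xenografts in the brains of NSG mice, which lack T, B and NK cells. The 4 Pracinostat libraries came from mice given this histone deacetylase inhibitor by mouth, with 4 doses of 30 mg/kg each week over 3 weeks that began on day 7 after implantation. The 3 DMSO libraries came from mice given the same solvent mixture (DMSO, PEG300, Tween-80 and PBS) without drug on the same schedule. All libraries thus share the tumour, the host strain and the solvent. The sources used here do not give the age and sex of the mice, or say whether a library is 1 mouse or a pool. The study as a whole concerns drugs that enhance phagocytosis by these cells, and the comparison shows what the receptor genes looked like after treatment in vivo.

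Scavenger receptors are surface and lysosomal membrane proteins that bind modified lipoproteins, polyanions, microbial surfaces and dying cells, and deliver them to endosomes and lysosomes. They are unrelated families grouped into classes by structure. Class A receptors (Msr1, Marco, Colec12) carry a collagen-like stalk, class B receptors (Cd36, Scarb1, Scarb2) span the membrane at both ends, and the class E (Olr1), class F (Scarf1) and class H (Stab1) receptors carry a C-type lectin-like domain, EGF-like repeats, or fasciclin and EGF-like domains. In brain tumours several of them are used to describe macrophages of the perivascular space and those that came from blood monocytes.

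Libraries held 10142753 to 16950597 counts, and 16319 to 19244 genes had at least 1 count. The values below are CPM, the counts scaled to a common library size, with TMM scaling factors. Itgam, which encodes the sorted antigen CD11b, stood at 1448 to 2579 CPM in Pracinostat libraries and 1318 to 1688 CPM in DMSO libraries, and Ptprc, which encodes the leukocyte antigen CD45, at 521 to 678 CPM and 472 to 733 CPM in the same groups. Markers of other cells are lists of 10 genes each. Pracinostat replicate 3 stood apart: in it each of the 10 markers of border-associated macrophages was at its lowest of the 7 libraries, 8 of 10 markers of monocyte-derived macrophages were lowest, and 9 of 10 microglia markers were highest. Fn1, fibronectin, the most abundant of the monocyte-derived macrophage markers, was instead highest in Pracinostat replicate 3, at 9829 CPM. Pracinostat replicate 4 alone held the lowest value of 9 of 10 endothelial and mural markers. Col1a1, a collagen gene of fibroblasts, was at 440 CPM in Pracinostat replicate 1 and 702 CPM in DMSO replicate 2, and at 11.7 to 32.2 CPM elsewhere. In such bulk samples, fewer cells of a type and less RNA per cell cannot be told apart.

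The promoters of 3 of these genes are shown because they belong to the most abundant gene (Stab1), the steadiest (Scarb2) and the most variable one detected in every library (Olr1) of the group. They are RefSeq windows on build GRCm38.p6, 250 bases before to 50 after the start, given 5′ to 3′ on the gene's strand. Capitals mark matches on either strand to the AP-1 letters TGANTCA, the PU.1 letters GAGGAA and the GC box GGGCGG. The windows were chosen after the values were seen.
Stab1, chr14:31168592-31168891, minus strand: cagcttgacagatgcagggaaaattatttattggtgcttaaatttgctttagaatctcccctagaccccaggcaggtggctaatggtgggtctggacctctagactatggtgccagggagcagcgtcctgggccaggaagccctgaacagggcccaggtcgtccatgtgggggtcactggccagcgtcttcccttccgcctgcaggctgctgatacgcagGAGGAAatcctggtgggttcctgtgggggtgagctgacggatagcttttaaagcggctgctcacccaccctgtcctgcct
Scarb2, chr5:92505608-92505907, minus strand: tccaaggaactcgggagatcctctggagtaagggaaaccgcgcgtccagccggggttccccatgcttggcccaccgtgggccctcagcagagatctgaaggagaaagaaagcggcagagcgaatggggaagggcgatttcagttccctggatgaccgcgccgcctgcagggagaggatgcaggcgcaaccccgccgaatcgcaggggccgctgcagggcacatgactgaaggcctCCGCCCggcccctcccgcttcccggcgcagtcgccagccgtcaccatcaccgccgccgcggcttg
Olr1, chr6:129507116-129507415, minus strand: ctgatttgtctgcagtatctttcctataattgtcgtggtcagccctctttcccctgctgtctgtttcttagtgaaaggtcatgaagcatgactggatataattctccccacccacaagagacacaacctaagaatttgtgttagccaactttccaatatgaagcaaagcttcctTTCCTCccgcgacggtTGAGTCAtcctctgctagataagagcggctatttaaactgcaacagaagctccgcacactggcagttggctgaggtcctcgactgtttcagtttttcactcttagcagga
The Scarb2 window holds 28 CpG dinucleotides, and 86.1% of the 27025 mouse promoter windows hold fewer, while the Stab1 and Olr1 windows hold 7 each, the median over all windows. The GC box was found in the Scarb2 window and occurs in 35.2% of all windows. The PU.1 letters were found in the windows of Stab1 and Olr1 and occur in 28.3% of all windows, and the AP-1 letters were found in that of Olr1 and occur in 7.89%. The TATA letters TATAAA (14.2% of all windows) and the E-box CACGTG (7.02%) were searched as well and occur in none of the 3. A match of letters is a description and not a binding site.

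The most abundant of the 9 genes were Stab1, Scarb2 and Msr1, and the least abundant was Marco. To compare genes, CPM were divided by the length of the longest coding transcript (GENCODE M21). Per kb, Stab1 had the highest level, Scarb2 came next and Msr1 after it in 7 of 7 libraries. Stab1 averaged 131 ± 20.4 CPM per kb with Pracinostat (SD, n = 4) and 204 ± 40.9 CPM per kb with DMSO (SD, n = 3). Scarb2 averaged 97.4 ± 10.2 CPM per kb with Pracinostat (SD, n = 4) and 99.5 ± 5.55 with DMSO (SD, n = 3), and Msr1 averaged 50.7 ± 10.0 and 57.4 ± 4.26 CPM per kb in the same groups. In DMSO libraries the ranges of these 3 genes did not overlap with each other or with those of the other 6.

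The middle of the order was held by Scarb1, Colec12 and Cd36, whose ranges overlapped. In DMSO libraries they spanned 22.2 to 36.3, 21.9 to 30.9 and 19.5 to 28.2 CPM per kb, so their order among themselves does not exceed the spread. Olr1 followed at 7.68 ± 2.17 CPM per kb (SD, n = 3), then Scarf1 at 4.00 ± 1.88 and Marco at 2.52 ± 1.83. The range of Scarf1 overlapped with those of both Olr1 and Marco. With Pracinostat, Olr1 spanned 1.78 to 34.4 CPM per kb and stood above Cd36 in 2 of the 7 libraries, which were Pracinostat replicates 1 and 2. Marco was last in 6 of 7 libraries.

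**Figure D1:**
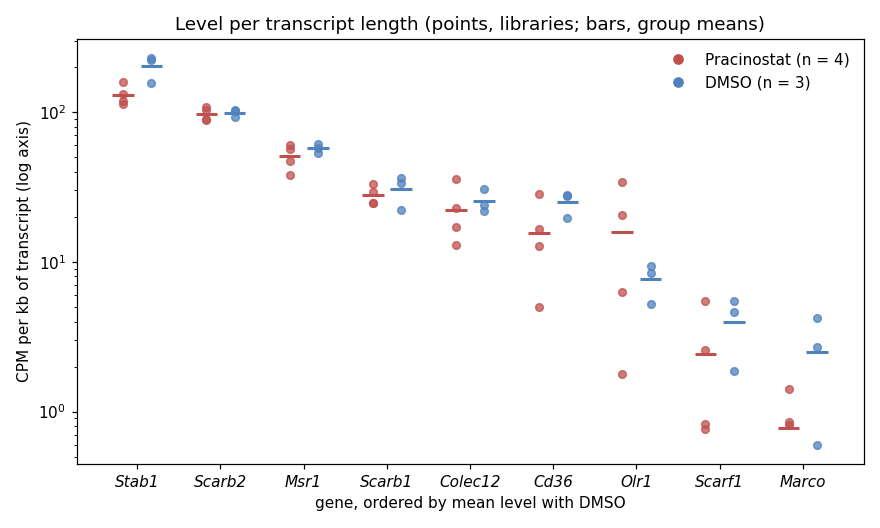
Level of each gene in CPM per kb of its longest coding transcript (vertical axis, log scale) for the 9 genes, with Pracinostat libraries (n = 4) left and DMSO libraries (n = 3) right. Points are libraries and bars are group means. Stab1, Scarb2 and Msr1 lie above the other 6 genes in both groups, and Olr1 spreads most, from 1.78 to 34.4 CPM per kb with Pracinostat. The count of 0 for Marco in Pracinostat replicate 3 cannot be drawn on a log axis and is part of the mean.

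The comparison of treatments called none of these genes. With edgeR, 0 of 9 had an adjusted p under 0.05, as did 0 of the 15822 genes tested (0%), and DESeq2 and limma-voom also called 0 of the 9. At an unadjusted edgeR p under 0.05 there was 1 of 9, Stab1, on the lower side, where 4.18% of all genes had such a p, 1.37% on the lower and 2.81% on the higher side. The list was drawn up with results of this comparison known, so its fold changes are a description, and nothing is read from these counts. Log2 fold changes, Pracinostat minus DMSO, were below 0 for 8 of the 9 genes and above 0 for Olr1. Over all genes 47.7% were below 0. The median was -0.21 over the 9 genes and 0.02 over all genes tested. None of the 9 genes had groups that did not overlap, which 6.1% of all genes had.

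**Figure D2:**
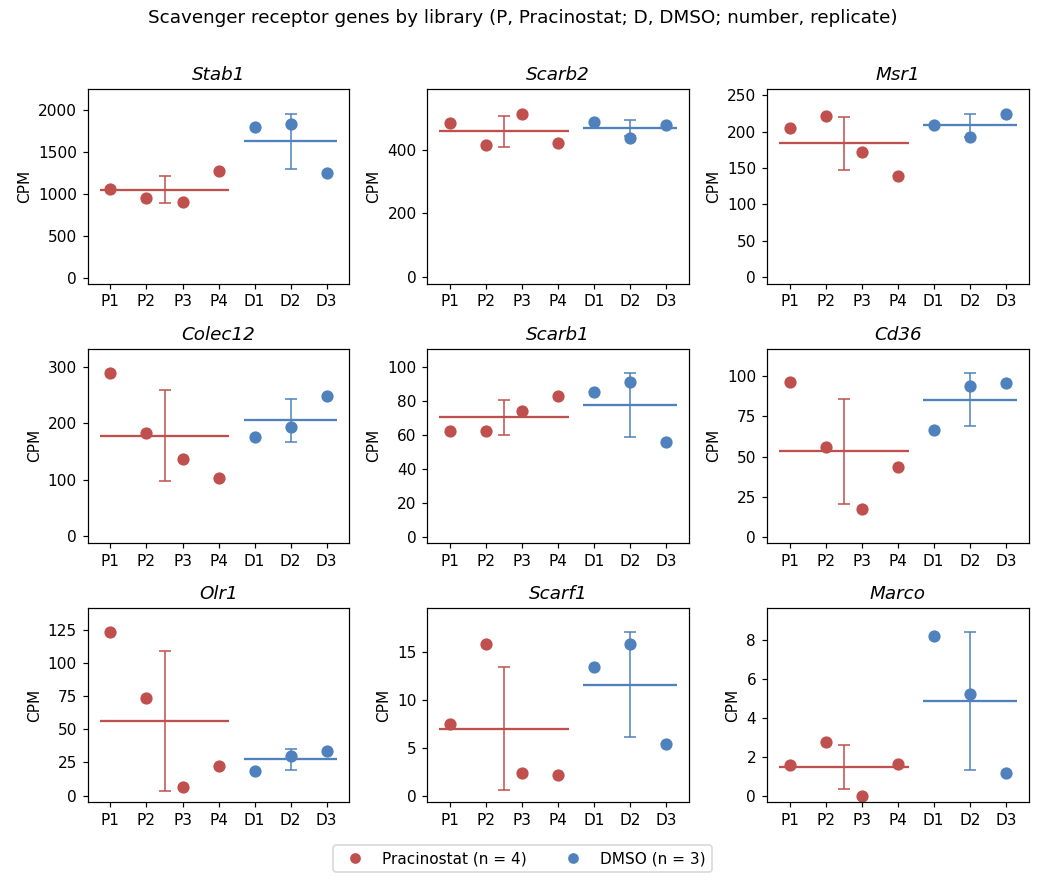
CPM (vertical axes, each starting at 0) of the 9 genes in the 4 Pracinostat libraries (P1 to P4, left) and the 3 DMSO libraries (D1 to D3, right). Points are libraries, horizontal bars are group means and error bars are SD. The groups overlap in every panel, in Stab1 through Pracinostat replicate 4 (1275 CPM) and DMSO replicate 3 (1251 CPM) alone.

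Stab1 encodes stabilin-1, a class H receptor of resident and alternatively activated macrophages and of sinusoidal endothelium that takes up acetylated lipoprotein and the matrix protein SPARC. It stood at 1057, 955, 909 and 1275 CPM in Pracinostat replicates 1 to 4, against 1797, 1836 and 1251 CPM in DMSO replicates 1 to 3. Pracinostat replicates 1, 2 and 3 were below every DMSO library, and Pracinostat replicate 4 was just above DMSO replicate 3. The log2 fold change was -0.63 ± 0.17 (SE), a ratio of 0.644, and its edgeR adjusted p over all genes was 0.986. It ran from -0.79 to -0.53 over 17 alternative settings. In 1 of them, a fit without a filter on low counts, the adjusted p was 0.0266. Stab1 made up 45.5, 48.1, 49.7 and 61.0% of the counts of the 9 genes in Pracinostat replicates 1 to 4, and 62.8, 63.4 and 52.3% in DMSO replicates 1 to 3.

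Markers of border-associated macrophages, which line the vessels and meninges and also express Stab1, were also lowest in Pracinostat replicate 3 and highest in DMSO replicates 1 and 2 when summed. Their summed share of counts was 0.166, 0.165, 0.0815 and 0.172% in Pracinostat replicates 1 to 4, against 0.237, 0.249 and 0.168% in DMSO replicates 1 to 3. Of the markers, Mrc1, the mannose receptor CD206, was at 262, 346, 45.2 and 360 CPM in Pracinostat libraries, against 410, 368 and 356 CPM in DMSO libraries. F13a1, a coagulation factor subunit, was at 629, 557, 237 and 612 CPM in Pracinostat libraries and at 1174, 1090 and 559 CPM in DMSO libraries. Not every marker followed this. Siglec1 was at 598, 561, 463 and 546 CPM in Pracinostat libraries, against 495, 623 and 532 CPM in DMSO libraries. Lyve1 was at 6, 37.7, 2.78 and 11.2 CPM in Pracinostat libraries, against 13.4, 15.7 and 17.9 CPM in DMSO libraries. The summed markers with F13a1, the most abundant of them, placed the 7 libraries in the same order as Stab1. Without F13a1 the order differed from that of Stab1, with 0.106, 0.111, 0.0572 and 0.11% of counts in Pracinostat replicates 1 to 4, against 0.12, 0.136 and 0.114% in DMSO replicates 1 to 3. For both Stab1 and the summed markers, DMSO replicates 1 and 2 were above all other libraries. This was not particular to border-associated macrophages. Monocyte-derived macrophage markers without fibronectin (Fn1) were also highest in DMSO replicates 1 and 2, at 0.117 and 0.101% of counts. They were lowest in Pracinostat replicate 3, at 0.0333%. Fn1 itself went the other way, at 9829 CPM in that library against 2919 to 5652 CPM elsewhere. With Fn1 the sum was highest there, at 1.04% of counts against 0.363 to 0.630% in the other libraries. The part of either set of markers in the Stab1 difference was not tested. Without Pracinostat replicate 3 the log2 fold change of Stab1 was -0.57 ± 0.18 (SE). Stab2, the paralogue known from sinusoidal endothelium, was at most 0.677 CPM with Pracinostat and stood at 0.629, 0.800 and 8.63 CPM in DMSO replicates 1 to 3.

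The class A receptor Msr1, which binds acetylated and oxidised lipoproteins through a trimeric collagen-like stalk, stayed within a 1.62-fold range over the 7 libraries. It stood at 205, 221, 172 and 139 CPM in Pracinostat replicates 1 to 4, against 209, 193 and 224 CPM in DMSO libraries. Only Pracinostat replicates 3 and 4 were below every DMSO library, and the log2 fold change was -0.18 ± 0.17 (SE).

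Colec12, a class A receptor with a lectin head that is also found on vascular endothelium, spread more widely with Pracinostat. Its values were 289, 183, 137 and 104 CPM in Pracinostat replicates 1 to 4, against 176, 193 and 248 CPM in DMSO libraries. The Pracinostat libraries held both the highest and the lowest values of the 7. The log2 fold change was -0.21 ± 0.31 (SE), and it was -0.54 ± 0.22 (SE) without Pracinostat replicate 1 and -0.04 ± 0.25 (SE) without Pracinostat replicate 4.

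Marco, a class A receptor of marginal zone and alveolar macrophages that binds bacteria and particles, was low and was not detected in Pracinostat replicate 3. It stood at 1.57, 2.74, 0 and 1.64 CPM in Pracinostat libraries, against 8.18, 5.20 and 1.16 CPM in DMSO libraries, from 0 to 104 counts. In Pracinostat replicate 3 the 0 counts allow a level of up to 0.203 CPM (3 counts of the total, for counting error only). DMSO replicates 1 and 2 were above every other library, while DMSO replicate 3 was below 3 of the Pracinostat libraries. The log2 fold change was -1.70 ± 1.13 (SE), and -1.09 ± 1.47 (SE) without DMSO replicate 1.

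Of the class B receptors, Cd36 binds oxidised lipoproteins, thrombospondin and long-chain fatty acids. It stood at 96.2, 56.1, 17.1 and 43.3 CPM in Pracinostat libraries, against 66.4, 94.2 and 95.7 CPM in DMSO libraries. Pracinostat replicate 1 was the highest of the 7 and the other 3 Pracinostat libraries were below every DMSO library. The log2 fold change was -0.68 ± 0.50 (SE), and it was -0.39 ± 0.27 (SE) without Pracinostat replicate 3 and -1.13 ± 0.38 (SE) without Pracinostat replicate 1.

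The class B receptors Scarb1 and Scarb2 stayed within 1.63-fold and 1.24-fold ranges over the 7 libraries. Scarb1, which takes up cholesteryl esters from high-density lipoprotein, stood at 62.1, 62.1, 74.0 and 83.1 CPM in Pracinostat libraries, against 85.1, 91.4 and 56.0 CPM in DMSO libraries. DMSO replicate 3 was the lowest of the 7, and the log2 fold change was -0.14 ± 0.21 (SE). Scarb2, the lysosomal membrane protein LIMP-2, stood at 483, 414, 512 and 421 CPM in Pracinostat libraries, against 487, 438 and 478 CPM in DMSO libraries. The groups overlapped throughout, and the log2 fold change was -0.03 ± 0.14 (SE).

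Olr1, the lectin-like receptor for oxidised low-density lipoprotein, was the gene of the 9 with a positive difference and the widest swing among those detected in every library. It stood at 123, 73.5, 6.35 and 22.5 CPM in Pracinostat replicates 1 to 4, against 18.7, 30.1 and 33.5 CPM in DMSO replicates 1 to 3. Pracinostat replicates 1 and 2 were above every DMSO library, Pracinostat replicate 4 lay among them and Pracinostat replicate 3 was below all, so the highest library held 19.4 times the level of the lowest. The log2 fold change was 1.04 ± 0.98 (SE). It was 0.32 ± 0.79 (SE) without Pracinostat replicate 1 and 1.41 ± 0.58 (SE) without Pracinostat replicate 3.

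Scarf1, a class F receptor that binds C1q on dying cells and is known from endothelium and dendritic cells, was low. It stood at 7.5, 15.8, 2.38 and 2.22 CPM in Pracinostat libraries, against 13.4, 15.8 and 5.41 CPM in DMSO libraries. Pracinostat replicates 3 and 4 were below every DMSO library, and the log2 fold change was -0.71 ± 0.66 (SE). It was -1.51 ± 0.63 (SE) without Pracinostat replicate 2, and -0.44 ± 0.64 (SE) without Pracinostat replicate 4. Endothelial and mural markers, which held 0.0349, 0.0438, 0.0300 and 0.0103% of counts in Pracinostat libraries and 0.0410, 0.0429 and 0.0320% in DMSO libraries, were also lowest in Pracinostat replicate 4. Scarf1 was about as low in Pracinostat replicate 3, with 36 counts, as in Pracinostat replicate 4, with 23. In Pracinostat replicate 3 these markers held 0.0300% of counts, close to the 0.0320% of DMSO replicate 3. Pecam1, the endothelial adhesion molecule CD31, stood at 35.3, 58.2, 37.7 and 21.9 CPM in Pracinostat libraries, against 67.6, 39.2 and 53.4 CPM in DMSO libraries. Their part in the values of Scarf1 and Colec12 was not tested.

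Seen by library, the genes did not move as a block. Pracinostat replicate 3 held the lowest value of 4 of the 9 genes, which were Stab1, Cd36, Olr1 and Marco, and Pracinostat replicate 4 that of 3, which were Msr1, Colec12 and Scarf1. Against each gene's own mean over the 7 libraries, log2 CPM in Pracinostat replicate 3 deviated by -2.24 for Olr1, -1.77 for Cd36 and -1.49 for Scarf1, and by 0.15 for Scarb2 and 0.03 for Scarb1. In Pracinostat replicate 1, Olr1, Cd36 and Colec12 were at their highest, with deviations of 2.01, 0.71 and 0.67. The same library held Col1a1 at 440 CPM. DMSO replicate 2, with Col1a1 at 702 CPM, had deviations of -0.02 for Olr1, 0.09 for Colec12 and 0.68 for Cd36. In DMSO replicate 3, where Col1a1 was low, Cd36 was at 0.70. The part of fibroblasts in these values was not tested. Monocyte-derived macrophage markers held 0.627, 0.594, 1.04 and 0.363% of counts in Pracinostat libraries and 0.630, 0.605 and 0.441% in DMSO libraries. That sum is mostly fibronectin, Fn1, and was highest in Pracinostat replicate 3. Without Fn1 it was 0.0858, 0.0606, 0.0333 and 0.0650% in Pracinostat libraries, against 0.117, 0.101 and 0.0683% in DMSO libraries, and thus lowest in Pracinostat replicate 3. Of 10 neutrophil markers, 8 were lowest or tied for the lowest there. The sum of all 10 was 0.0375% of counts in that library, against 0.0489 to 0.0563% in Pracinostat replicates 1, 2 and 4. DMSO libraries had 0.0387 to 0.0598%, so it was hardly lower. Csf3r, their most abundant gene, was not low there, at 360 CPM against 271 to 359 CPM in DMSO libraries. Mmp8, at 5.03 CPM, was above DMSO replicate 3, at 2.83 CPM. Without Csf3r the markers held 0.000636% of counts in Pracinostat replicate 3. On that measure Pracinostat replicates 1, 2 and 4 had 0.0139 to 0.0198% and DMSO libraries 0.00957 to 0.0239%. Of 10 dendritic cell markers, 5 were lowest there, but Siglech was highest there, at 118 CPM. Without Itgax, the most abundant of them, dendritic cell markers held 0.0146% of counts in Pracinostat replicate 3. In the other libraries they held 0.0153 to 0.0264%, so the sum was hardly lower. The part of these 3 cell types in the low values of Cd36, Olr1 and Marco was not tested. Of the 9 genes, 8 stayed negative without Pracinostat replicate 3, where 49.3% of all genes were negative.

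**Figure D3:**
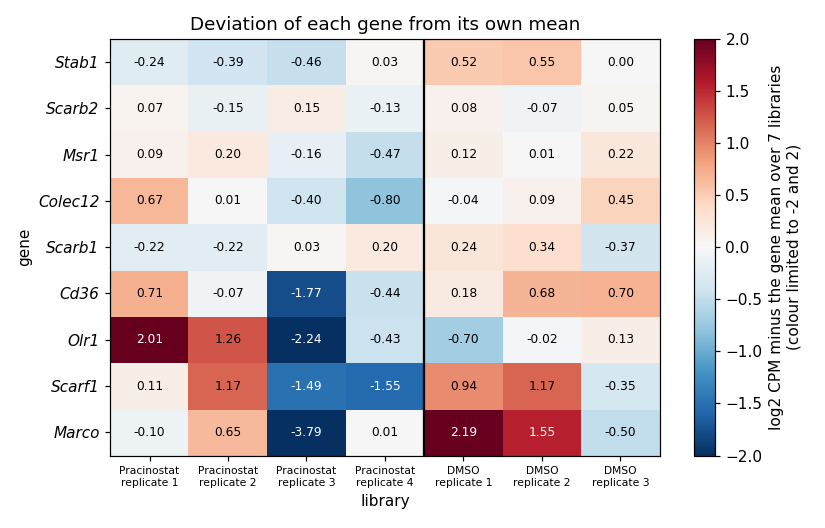
Deviation of log2 CPM (prior count 2) from each gene's own mean over the 7 libraries, with the Pracinostat libraries left of the line and the DMSO libraries right of it. Rows are genes, columns are libraries, and the colour is limited to -2 and 2. Pracinostat replicate 3 is at -2.24 for Olr1, -1.77 for Cd36 and -3.79 for Marco, while Scarb2 stays within 0.15 of its mean in every library.

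The spread between libraries of 1 group also differed among the genes. Among Pracinostat libraries the coefficient of variation was 10.4% for Scarb2, 14.5% for Scarb1, 15.6% for Stab1 and 19.9% for Msr1, and 93.9% for Olr1, 91.5% for Scarf1, 75.8% for Marco, 62.0% for Cd36 and 45.2% for Colec12. Among DMSO libraries it was 5.61% for Scarb2, 7.37% for Msr1, 18.1% for Colec12, 19.3% for Cd36, 20.1% for Stab1, 24.4% for Scarb1, 28.2% for Olr1, 47.1% for Scarf1 and 72.7% for Marco. Scarb2 was thus the steadiest gene in both groups. The difference in spread between the groups was not tested.

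**Figure D4:**
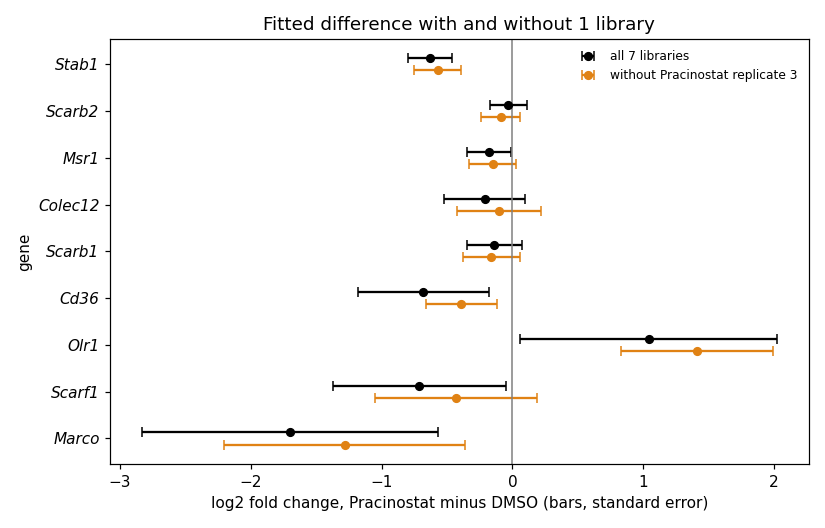
Fitted log2 fold change, Pracinostat minus DMSO (horizontal axis), of the 9 genes with its standard error, from all 7 libraries and without Pracinostat replicate 3. Olr1 is above 0 in both fits, at 1.04 and 1.41, and the other 8 genes are below 0. The value of Cd36 is -0.68 with that library and -0.39 without it.

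The genes whose profile over the 7 libraries lay closest to a member were sought among 7333 genes whose log2 CPM averaged 4 or more, by the root mean square difference of centred log2 CPM. Stab1 was closest to Dok3, an adaptor that restrains immune receptor signalling (0.10), Maf1, a repressor of RNA polymerase III (0.12), and Tbxas1, thromboxane synthase (0.12). Dok3 stood at 53.8, 40.8, 38.8 and 60.5 CPM in Pracinostat libraries, against 72.5, 79.6 and 55.1 CPM in DMSO libraries. Cd36 was closest to Emp1 (0.20), Myof (0.22) and Ms4a7 (0.22), the last a marker of border-associated macrophages that stood at 14.9 CPM in Pracinostat replicate 3 and at 63.4 to 113 CPM in the other libraries. The differences were not scaled to a gene's own spread, so steadier genes tend to have smaller ones. For Olr1, Cxcl1, a neutrophil-attracting chemokine, came first at 0.44, then the nuclear receptor Nr4a2 at 0.50 and Clec7a, the beta-glucan receptor Dectin-1, at 0.61. Cxcl1 stood at 123, 119, 15.9 and 27.4 CPM in Pracinostat libraries, against 19.8, 35.8 and 61.1 CPM in DMSO libraries, and so was also highest in Pracinostat replicates 1 and 2. Scarb2 was closest to Tmem30a (0.02), Ywhab (0.04) and Selenof (0.05), and Msr1 to Plekho1 and Gpr183 (0.07 each) and Rab11b (0.08). Colec12 was closest to Hnrnpll (0.11), Hif1an and Cwc27 (0.16 each), and Scarb1 to Tm6sf1 and Edc4 (0.08 each) and Zfp410 (0.09).

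Other receptors with scavenger activity were listed as well. Of 30, 27 were in the table and 21 were tested, and edgeR called 0 higher and 0 lower at an adjusted p under 0.05. Log2 fold changes were positive for 11 and negative for 10, with a median of 0.02, the same as over all genes. Cd5l, a secreted scavenger protein of macrophages, stood at 7.97, 13.2, 17.1 and 3.38 CPM in Pracinostat libraries, against 34.0, 22.1 and 15.1 CPM in DMSO libraries, with a log2 fold change of -1.18 ± 0.47 (SE). Ssc5d, a soluble scavenger receptor cysteine-rich protein, had 12, 33, 18 and 4 counts in Pracinostat libraries and 0 in each DMSO library, where 0 counts allow up to 0.189 to 0.249 CPM.

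Cd163, the haemoglobin-haptoglobin receptor, was at 20, 30.7, 0.727 and 37.4 CPM in Pracinostat libraries, against 22.2, 46.7 and 42.9 CPM in DMSO libraries, and was thus also low in Pracinostat replicate 3. Cd14, the lipopolysaccharide co-receptor, was at 1261, 1150, 440 and 758 CPM in Pracinostat libraries, against 535, 388 and 568 CPM in DMSO libraries, with a log2 fold change of 0.86 ± 0.34 (SE) and overlapping groups. Cd68, the lysosomal class D receptor macrosialin, was at 846 to 1469 CPM with Pracinostat and 1031 to 1677 CPM with DMSO.

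Among these receptors and the further lists of related genes, DESeq2 called Tlr2 alone, and the counts of calls per list are those of edgeR at an adjusted p under 0.05. Ligands and soluble partners gave 0 calls among 19 genes tested, with 8 positive and 11 negative log2 fold changes and a median of -0.15. Apob, the protein of low-density lipoprotein, stood at 28.5, 32.5, 55.6 and 43.1 CPM in Pracinostat libraries, against 65.3, 103 and 63.0 CPM in DMSO libraries, which do not overlap, and its log2 fold change was -0.95 ± 0.26 (SE). Groups that do not overlap on the lower side were seen for 2.59% of all genes. Thbs2, a thrombospondin of the kind Cd36 binds, was at -0.60 ± 0.29 (SE). Apoe, the lipoprotein ligand that these macrophages make in large amounts, was at 5192 to 16768 CPM with Pracinostat and 9362 to 13255 CPM with DMSO, and lipoprotein lipase, Lpl, was at 50.2 to 122 and 56.1 to 113 CPM in the same groups.

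Co-receptors and proximal signalling genes gave 0 calls among 20 tested with edgeR and 1 with DESeq2, which was Tlr2. Log2 fold changes were positive for 11 and negative for 9, with a median of 0.04. Tlr2, which senses bacterial lipopeptides and can do so with Cd36, stood at 547, 523, 642 and 485 CPM in Pracinostat libraries, against 349, 288 and 367 CPM in DMSO libraries. Its groups did not overlap, as was so on the higher side for 3.51% of all genes, and its log2 fold change was 0.71 ± 0.16 (SE) with an edgeR adjusted p of 0.636 and a DESeq2 adjusted p of 0.013. DESeq2 called 0.16% of all genes, and limma-voom called 0 genes. Tlr4 and Tlr6, which pair with each other when Cd36 presents oxidised lipoprotein, were at -0.08 ± 0.25 and 0.02 ± 0.31 (SE). The kinases Fyn and Lyn, which act next to Cd36, were at 0.06 ± 0.24 and 0.10 ± 0.13, and the tetraspanin Cd81 was at 0.50 ± 0.22. The groups of Lyn did not overlap either, at 666 to 700 CPM with Pracinostat and 614 to 665 CPM with DMSO.

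Endocytosis and trafficking adaptors gave 0 calls among 18 tested, with 7 positive and 11 negative and a median of -0.03. The members with the smallest p were Itgb5, an integrin chain used with Cd36 in the uptake of dying cells, at 0.27 ± 0.14 (SE), and the caveola gene Cav2 at -0.86 ± 0.51 (SE). The groups of Itgb5 did not overlap, at 902 to 1093 CPM with Pracinostat and 791 to 898 CPM with DMSO. Groups that do not overlap on the higher side were seen for 3.51% of all genes. Genes of the lysosome gave 0 calls among 10 tested, with 2 positive and 8 negative and a median of -0.13. Lipa, lysosomal acid lipase, stood at 259, 147, 146 and 211 CPM in Pracinostat libraries, against 277, 276 and 227 CPM in DMSO libraries (-0.45 ± 0.20, SE), and the lysosomal membrane gene Lamp1 was at -0.29 ± 0.15.

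Genes that handle lipid after uptake gave 0 calls among 15 tested, with 6 positive and 9 negative and a median of -0.12. Plin2, the coat protein of lipid droplets, was at -0.28 ± 0.15 (SE), Nceh1, a cholesteryl ester hydrolase, at -0.29 ± 0.17, and Abca1, the cholesterol exporter, at 0.05 ± 0.14. Regulators of scavenger receptor genes gave 0 calls among 24 tested, with 14 positive and 10 negative and a median of 0.07. Maf, a transcription factor of resident macrophages, stood at 172, 179, 162 and 213 CPM in Pracinostat libraries, against 257, 235 and 235 CPM in DMSO libraries (-0.42 ± 0.15, SE). Egr1, an immediate-early factor, stood at 2863, 3769, 2911 and 3025 CPM in Pracinostat libraries, against 1902, 1889 and 2839 CPM in DMSO libraries (0.51 ± 0.18, SE). The groups of Maf and of Egr1 did not overlap, those of Egr1 by 2863 against 2839 CPM, as was so for 6.1% of all genes in either direction. Pparg, a nuclear receptor known to drive Cd36 in macrophages, was at 12.3, 4.38, 0.463 and 4.35 CPM in Pracinostat libraries, against 10.1, 15.5 and 6.96 CPM in DMSO libraries. It was lowest, with 7 counts, in Pracinostat replicate 3, where Cd36 was lowest too. The part of Pparg in the values of Cd36 was not tested.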

How the data were processed

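RNA of CD11b-sorted cells was sequenced in 4 Pracinostat and 3 DMSO libraries. Libraries came from a stranded total RNA kit with 1 ng of input and were read as pairs of 150 bases over 2 lanes, per the labels' protocols. The build is GRCm39, and the tools STAR, RSEM, DESeq2, Trim Galore, FastQC and MultiQC are listed with neither role nor version, per the submitters' processing notes. How strand was treated, and with which annotation, is not stated, so overlapping genes are uncertain. The authors deposited an estimated count per gene symbol, as RSEM makes it, stored as a whole number without normalization. A second figure in the labels, 3 mg/kg at preparation, was taken to describe the solution.

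The whole table was fitted with edgeR 4.0.16 in R 4.3.3. Scaling was by TMM, low genes were removed by filterByExpr (minimum count 10), and the quasi-likelihood test was robust and two-sided. The p-values were adjusted by Benjamini and Hochberg over 15822 genes, with a threshold of 0.05. The standard error of a log2 fold change is the fitted coefficient over the root of its F statistic. DESeq2 1.42.0 and limma-voom (limma 3.58.1) were alternatives, with other scalings and filters, a fit without robust estimation, each library left out and the replicate number as a block. The script was tested on simulated data. Transcript lengths are those of GENCODE M21 and promoter windows those of RefSeq, both on GRCm38, and 5 of the 9 genes have such a window. Named beside the 9 genes were the 2 genes of each list with the smallest p, the 3 genes nearest in profile to each member whose log2 CPM averaged 4 or more, and a few listed in advance, of which 1 is not reported here. Genes named from marker lists or outside this rule were chosen after their values were seen. The members and lists were chosen with earlier results of these data known. No 2 libraries were duplicates: chi-square over degrees of freedom was 32.3 or more for each pair. The labels call the samples biological replicates without naming animals. The p-values thus set the group difference against the spread between these samples, which may not be that between mice. The replicate numbers were not taken as pairs.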

Additional observations from a re-analysis of the deposited data

Results flagged for a closer look

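For 73 values, the 4 Pracinostat libraries were searched for 1 that lies apart from the rest by Dixon's 95% limit, and 4 values had one. Chance flags about 1 in 20 such groups. None of the 9 receptor genes was among them. In Pracinostat replicate 3 the summed markers of border-associated macrophages were at 0.0815% of counts, where Pracinostat replicates 1, 2 and 4 had 0.165 to 0.172% and DMSO libraries 0.168 to 0.249%. In the same library Lamp1 was at 1084 CPM, against 1324 to 1371 CPM in the others and 1326 to 1779 CPM with DMSO. In Pracinostat replicate 1 Col1a1 was at 440 CPM, against 11.7 to 23.9 CPM in the others and 12.4 to 702 CPM with DMSO, and the fibroblast markers were at 0.0729% of counts, against 0.00248 to 0.00566% and 0.00245 to 0.117%. The DMSO group, with 3 libraries, was not screened.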

How the results depend on the processing

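The count of 0 genes called stayed at 0 in 13 of 17 alternatives. It was 63 with no low-count filter, 27 with DESeq2, and 4 in the fit with a replicate block, from which Pracinostat replicate 4 is missing. With single libraries left out it ran from 0 to 3, with 3 when DMSO replicate 3 was absent. The count of 0 members called was 1 with no low-count filter, which was Stab1 (adjusted p = 0.0266), and 0 in the other 16 alternatives, including each library left out and the block. The cause was not tested. Msr1, Marco, Colec12, Cd36, Scarf1, Stab1 and Olr1 kept the sign of their log2 fold change in 17 of 17 alternatives. Scarb1 kept it in 16 and was at 0.06 without both collagen-rich libraries, an alternative chosen after seeing the data. Scarb2, as rounded, kept it in 15, stood at 0.00 without DMSO replicate 1 and reached 0.01 without Pracinostat replicate 2. Other scalings left the median of all genes between 0.00 and 0.02. Same-numbered samples deviated together with correlations of 0.111, 0.0734 and 0.185, against -0.152 to 0.129 for unlike numbers. Each of Pracinostat replicates 1 to 3 correlated best with the DMSO library of its own number. Pracinostat replicate 4, which has no such library, reached 0.129 with DMSO replicate 2, above the same-numbered 0.111 and 0.0734. These values thus cannot show whether the numbers mark pairs. With the union of exons as length, chosen after seeing the data, the order of the 9 genes with DMSO was the same. Depth limits Marco and Scarf1, with 0 to 104 and 23 to 260 counts per library.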
